A study of Mus musculus with 3 samples.

Results

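The ribosomal protein genes are the genes of the cytosolic ribosome whose mouse symbols are Rpl (large subunit) or Rps (small subunit) followed by a number and at most 1 letter, leaving out the Rps6k kinases. By that rule 77 of 21900 protein-coding genes of the mm10 (GRCm38) mouse genome are members, 47 of the large and 30 of the small subunit, and 76 of them had at least 1 feature of the deposited data within 1 kb of a gene end. Those features number 215 of 315694, each about 500 bp wide. The data are single-nucleus ATAC-seq, an assay that marks open chromatin by where a transposase inserts adapters in each nucleus, of GFP-positive nuclei sorted from mouse dorsal skin. All groups carried Dct-rtTA; Tre-H2B-GFP, a pair of transgenes that puts GFP on the histones of cells with an active Dct promoter, a melanocyte-lineage promoter, once doxycycline is given, and all received doxycycline for 5 days. The UVB group was a pool of 24 mice exposed 3 times to 2.2 mJ/cm2 and held in 2 technical-replicate libraries. The anagen group was a pool of 8 mice in the growth phase of the hair cycle, started by chemical depilation with Nair cream, and the telogen group was a pool of 12 mice in its resting phase. The labels give the age as 7 weeks in the treatment text and 8 weeks in the characteristics.

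Each condition was 1 sample, so no difference here has a replicate check and no test was made. The values are given side by side with 95% intervals for counting error alone. The anagen and telogen nuclei came from 1 library and the UVB nuclei from separate ones, so an effect of UVB and an effect of library cannot be told apart. Counted once per condition, there were 6553 UVB, 3753 anagen and 2042 telogen nuclei with 16182770, 10397896 and 5225945 counts, and their median counts per nucleus were 1726, 1577 and 1650. Of the barcodes, 506 were seen in more than 1 condition (289 in UVB and telogen, 217 in UVB and anagen). In UVB nuclei 62.6% of the entries above 0 were the value 2, against 59.1% in anagen and 61.9% in telogen, so counts come mostly in pairs and the intervals are too narrow. The GFP sort did not leave melanocyte nuclei alone: clusters with melanocyte marker genes held 46.0% of UVB, 30.6% of anagen and 11.2% of telogen nuclei.

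Ribosomal proteins are made in equal numbers for each ribosome, from genes scattered over the genome. Their promoters are short, active in nearly every cell type, and many of them start transcription inside a run of pyrimidines. That run becomes the 5' terminal oligopyrimidine (TOP) element of the message, through which the growth kinase mTORC1 and the RNA-binding protein Larp1 set its translation. In mice the supply of ribosomal proteins touches pigmentation: mutations of Rps19 and Rps20 darken the skin through p53 and Kit ligand made by keratinocytes, Rpl24 is mutated in the Belly spot and tail mouse, and Rps7 mutation gives a white belly spot. Rpl5 and Rpl11 bind Mdm2 and restrain its action on p53 when ribosome assembly is disturbed.

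Promoter sequences of 58 members were matched by symbol to RefSeq entries of the GRCm38.p6 build, some with several starts. The 8 below are shown because they cover the most accessible members and those whose values differed between conditions or that belong to the pigment and p53 lists, and because they show how the start-site elements vary. Each line runs 5' to 3' along the gene from 100 bases before the start to 20 bases after it. Capitals mark a pyrimidine run of at least 5 bases near the start and matches, on either strand, to the ETS family motif CCGGAAG or the YY1 motif AAGATGGC.
Rpl13a (chr7:45128726-45128845, minus strand): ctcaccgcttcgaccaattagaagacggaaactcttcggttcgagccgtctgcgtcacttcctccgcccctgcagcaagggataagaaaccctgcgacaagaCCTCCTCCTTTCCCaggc
Rpl41 (chr10:128549149-128549268, minus strand): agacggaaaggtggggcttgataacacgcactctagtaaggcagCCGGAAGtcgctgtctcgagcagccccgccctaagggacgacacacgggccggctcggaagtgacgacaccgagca
Rpl15 (chr14:18270967-18271086, minus strand): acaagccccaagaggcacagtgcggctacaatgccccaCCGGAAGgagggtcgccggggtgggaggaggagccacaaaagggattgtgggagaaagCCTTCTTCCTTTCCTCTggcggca
Rpl27a (chr7:109519095-109519214, plus strand): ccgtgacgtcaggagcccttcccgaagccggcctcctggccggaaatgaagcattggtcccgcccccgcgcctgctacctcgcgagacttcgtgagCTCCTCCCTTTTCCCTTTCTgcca
Rpl38 (chr11:114668480-114668599, plus strand): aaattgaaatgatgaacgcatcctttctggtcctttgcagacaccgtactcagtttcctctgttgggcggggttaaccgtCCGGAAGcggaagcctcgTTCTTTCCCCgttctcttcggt
Rps7 (chr12:28635934-28636053, minus strand): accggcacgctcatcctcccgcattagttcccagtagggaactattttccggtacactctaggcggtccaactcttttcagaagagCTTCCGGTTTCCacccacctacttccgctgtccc
Rpl26 (chr11:68901466-68901585, plus strand): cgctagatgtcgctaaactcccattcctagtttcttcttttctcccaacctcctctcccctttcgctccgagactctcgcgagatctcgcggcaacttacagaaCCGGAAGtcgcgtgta
Rps15a (chr7:118116128-118116247, minus strand): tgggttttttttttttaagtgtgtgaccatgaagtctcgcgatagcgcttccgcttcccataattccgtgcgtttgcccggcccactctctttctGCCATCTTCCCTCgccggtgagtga
Rpl27a and Rpl15 show a long run across the start, and Rpl41 and Rpl26 show no marked run. Rpl41 has an ETS match from position -56 and Rpl26 from position 4 relative to the start. Rpl15 and Rpl38 have both a run and an ETS match. The run of Rps15a overlaps a YY1 match on the other strand, and the run of Rps7 follows directly on an ETS match on the other strand.

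The start-site elements were more frequent among members than among all promoters of the same 300 bases (250 before to 50 after the start). A C followed by 4 pyrimidines within 5 bases of the start was found in 42.9% of 70 member promoters, against 18.6% of 21263 promoters of all protein-coding genes. The ETS motif CCGGAAG was found in 34.3% of member promoters, against 11.6% of all, and the YY1 motif AAGATGGC in 10.0%, against 3.05%. The SP1 motif GGGCGG was nearer to the rest, at 55.7% against 46.2%, as were the E-box CACGTG at 11.4% against 7.84% and the TATA box TATAAA at 8.57% against 12.6%. The cAMP response element TGACGTCA was found in 7.14%, against 2.23%. The GC content was alike (median 57.0%, against 56.3%), while CpG pairs numbered a median of 21, against 13. Both strands were searched except for the pyrimidine run, and a match is a description of these letters, not a bound site. Members with the ETS motif had a median accessibility of 37.7 CPM and those without it 29.7 CPM, where CPM stands for counts per 1000000, taken over all counts in features of a condition and here averaged over the 3 conditions. These are 23 and 35 genes. Members with the pyrimidine run had a median of 36.3 CPM (28 genes) and those without it 26.9 CPM (30 genes). For the SP1 motif the medians were 39.1 CPM with it (33 genes) and 28.6 CPM without it, for the E-box 36.7 and 30.5 CPM (6 genes with it) and for the cAMP response element 33.5 and 29.7 CPM (5 genes with it). The order was the other way for YY1, with 21.2 CPM with it (5 genes) and 30.7 CPM without it, and for the TATA box, with 13.0 CPM (6 genes) and 33.2 CPM.

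Within the windows at the gene ends, accessibility lay mostly at the starts. Features farther than 1 kb from a gene end were not counted, and the same shares for all protein-coding genes are not given here. Of 57 members with an annotated start and a feature, the strongest feature was centred within 250 bp of a start in 45 and within 500 bp in 48, at a median of 56 bp upstream (-56 bp). Features centred within 500 bp of a start held 80.2% of these members' counts in UVB, 76.3% in anagen and 77.0% in telogen. A member had a median of 3 features and at most 6. The strongest one held a median of 86.3% of a member's counts, and over 50% in 74 members. Of the 215 features, 55 also lay near the end of another protein-coding gene, so their counts cannot be given to 1 gene. Of the 4 features of Rpl13a, 2 also lie near another gene, and features of Rpl41 also lie near Zc3h10.

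**Figure D1:**
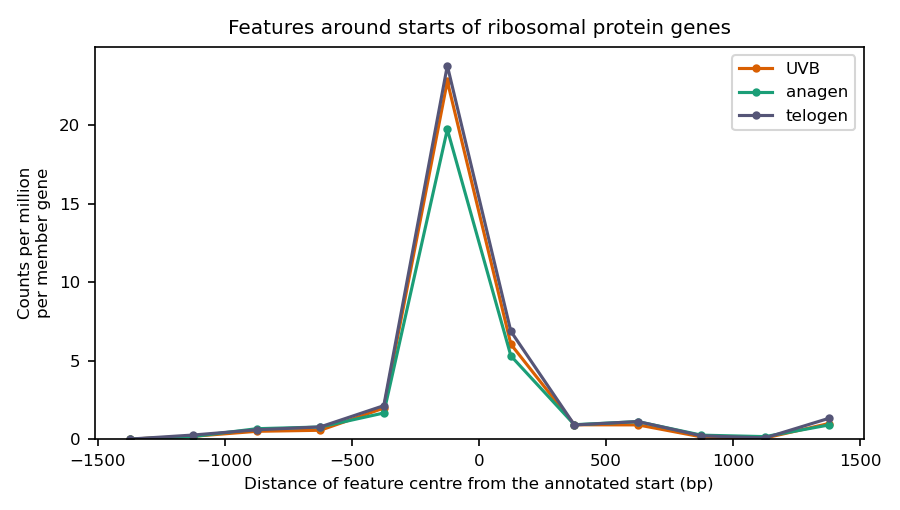
Accessibility around the annotated starts of 57 ribosomal protein genes in UVB (orange), anagen (green) and telogen (grey). The horizontal axis is the distance of a feature's centre from the start in bp, in bins of 250 bp, and the vertical axis is CPM per member gene. In each condition the highest point is the bin just upstream of the start, at 22.8 CPM in UVB, 19.7 CPM in anagen and 23.8 CPM in telogen.

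Members differed widely in level. Over members with a feature the median level was 31.5 CPM in UVB, 29.3 CPM in anagen and 38.4 CPM in telogen. Over 15876 protein-coding genes with a feature it was 18.7, 19.1 and 21.2 CPM. The highest level was that of Rpl13a (chr7:45125563-45128745), a large subunit protein that in human cells also silences the translation of certain messages, at 175.7 CPM in UVB, 164.6 CPM in anagen and 183.9 CPM in telogen. Rpl41 (chr10:128548110-128549168), which encodes a very short basic peptide of the large subunit, had 140.0, 124.9 and 170.5 CPM, partly from features near Zc3h10. Rps19 (chr7:24884592-24889811), a small subunit protein mutated in Diamond-Blackfan anaemia in humans, had 104.9, 90.4 and 119.2 CPM. Rpl37 had 107.9, 80.5 and 94.5 CPM, and Rps29 had 94.6, 77.6 and 107.9 CPM. In each of these 5 genes anagen was lowest, and telogen was highest in all but Rpl37. At least 1 count of Rpl13a was found in 18.0% of UVB, 19.5% of anagen and 19.2% of telogen nuclei, so even the most accessible member was recorded in a minority of nuclei.

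Several of the lowest levels come from genes whose main start lies outside the window of 1 kb at both gene ends. Rps2, a small subunit protein, has no feature by the rule, but a feature at its annotated start held 48.6 CPM in UVB, 47.9 CPM in anagen and 65.1 CPM in telogen. Rpl22, a large subunit protein with a second gene copy (Rpl22l1), had 3.0, 3.2 and 2.1 CPM by the rule and 38.6, 45.0 and 56.3 CPM at its annotated starts. Rps27l, a copy of Rps27 that is a p53 target in human cells, had 2.2, 4.0 and 2.3 CPM by the rule and 29.5, 24.8 and 35.0 CPM at its starts. Rps25 had 2 counts in UVB, 4 in anagen and 2 in telogen, and no feature at its start either. The testis copy Rpl10l had 3, 4 and 2 counts, and Rpl39l had 1.7, 1.6 and 1.3 CPM. Rpl3l, the striated muscle copy of Rpl3, read 50.9, 45.7 and 53.2 CPM, but its 3 features are shared with another gene's window and none is near its annotated starts, so the level cannot be given to its promoter.

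**Figure D2:**
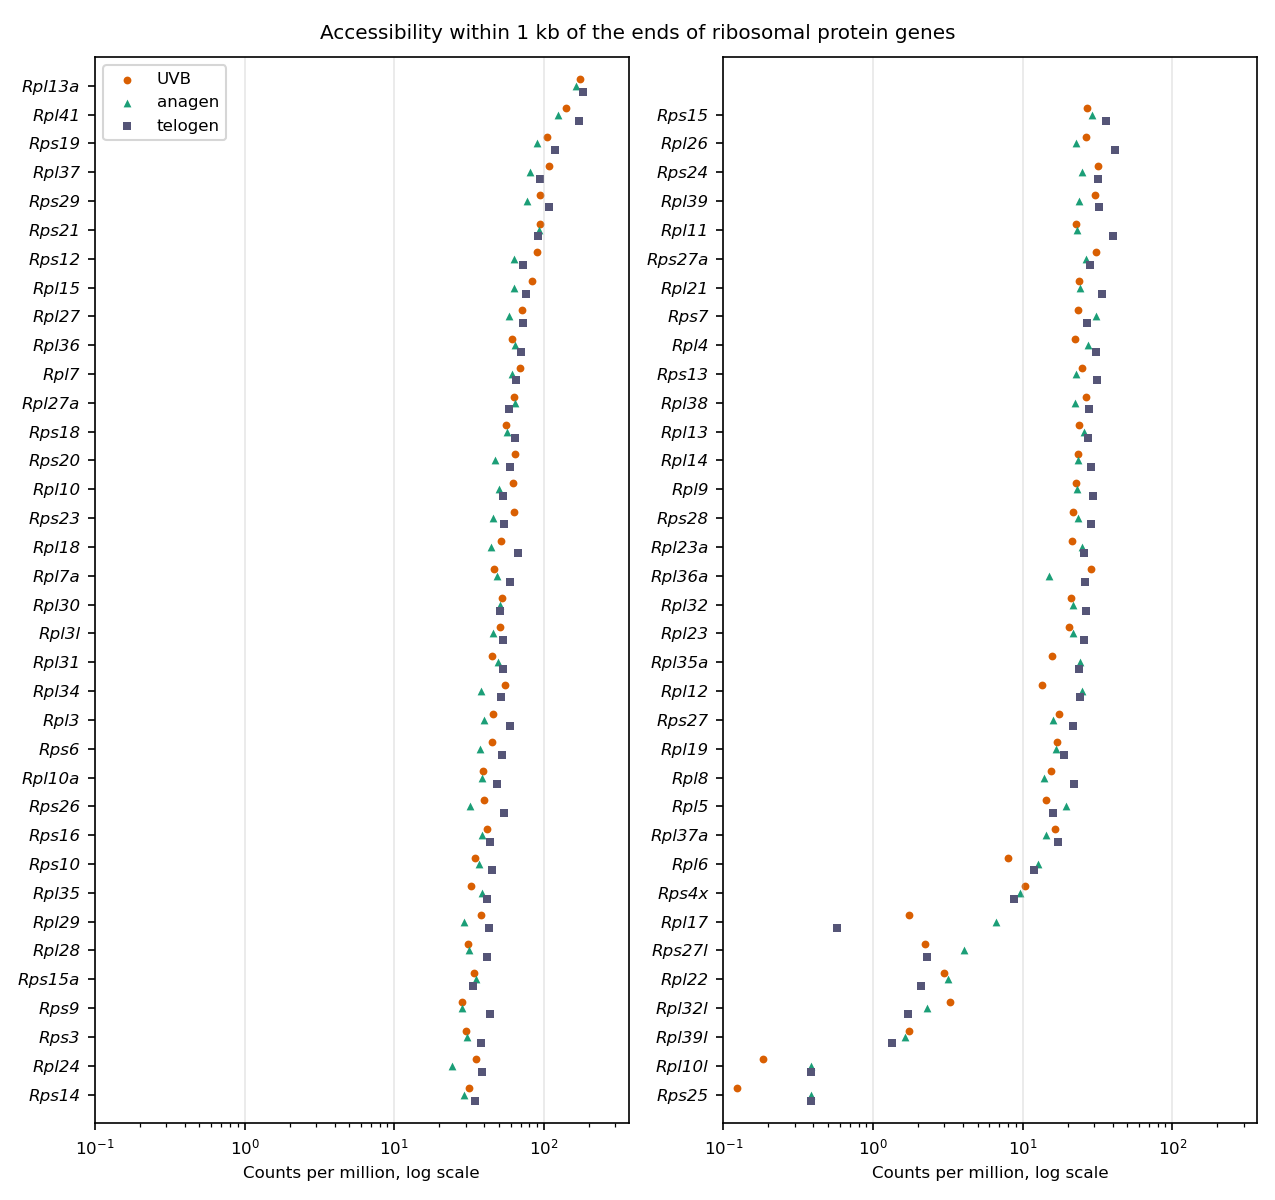
Accessibility within 1 kb of the ends of 71 ribosomal protein genes, in CPM on a log scale, with genes in order of their mean. Circles are UVB, triangles anagen and squares telogen, each 1 sample, so there is no replicate spread to draw. Rpl13a and Rpl41 lead, and the 7 genes at the bottom right lie at or under 6.6 CPM in every condition.

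Summed over the family, ribosomal protein accessibility was highest in telogen, lower in UVB and lowest in anagen. The sum was 3047 CPM in UVB (95% interval 3020 to 3074), 2759 CPM in anagen (2727 to 2791) and 3376 CPM in telogen (3326 to 3426). UVB over telogen was 0.903-fold (0.887 to 0.918), anagen over telogen 0.817-fold (0.802 to 0.833) and UVB over anagen 1.104-fold (1.088 to 1.121). Gene ends at large stood in the same order: 40.3% of UVB counts, 37.7% of anagen counts and 42.5% of telogen counts lay near the end of any protein-coding gene. Scaled to counts near gene ends in place of all counts (gene-end CPM), the family held 7555 in UVB, 7309 in anagen and 7935 in telogen, which makes the ratios 0.952, 0.921 and 1.034. Large and small subunit members had close ratios, at 0.895 and 0.910 for UVB over telogen and 0.822 and 0.810 for anagen over telogen. A nucleus had a median of 3 open ribosomal protein features in each condition, and at least 1 count was found in 89.0% of UVB, 84.5% of anagen and 88.0% of telogen nuclei.

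A smaller share of members than of all genes lay past 1.5-fold. Counting a ratio of at least 1.5 either way among genes with at least 30 counts over both conditions, UVB over telogen had 2 members higher and 6 lower of 74, where 8.37% of 14000 protein-coding genes were higher and 16.5% lower. Anagen over telogen had 3 higher and 11 lower of 73, where 10.2% of 13719 genes were higher and 16.3% lower. UVB over anagen had 1 higher and 5 lower of 74, where 10.4% of 14271 genes were higher and 11.4% lower. The shares past 1.5-fold either way were 10.8%, 19.2% and 8.11% of members, where the background was 24.9%, 26.5% and 21.8%. Members had a median log2 ratio of -0.19 for UVB over telogen, -0.28 for anagen over telogen and 0.09 for UVB over anagen, and all genes -0.14, -0.17 and 0.03. The interquartile range of the members' log2 ratios was 0.38, 0.36 and 0.37, and that of all genes 0.59, 0.53 and 0.56. These members had more counts than most genes (median 692 over UVB and telogen, against 515), whose part in the narrower range was not tested. Of 73 members with at least 30 counts in every pair, telogen was highest in 47 (64.4%), UVB in 15 and anagen in 11, where telogen was highest in 51.2% of 13513 genes.

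**Figure D3:**
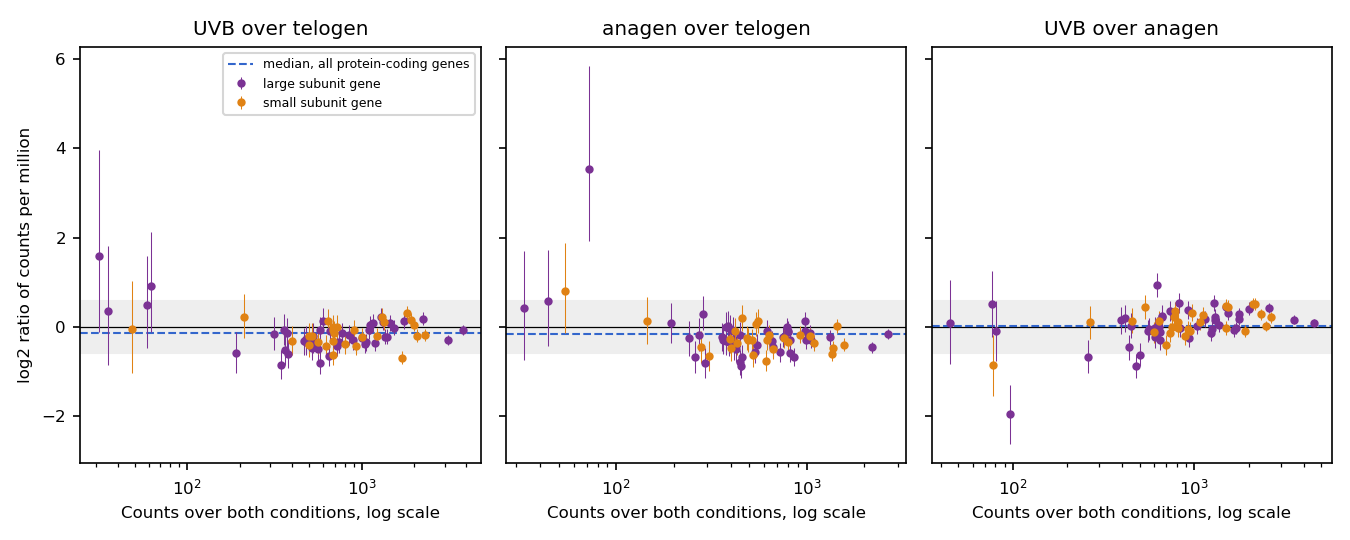
Ratio of CPM between conditions for each member with at least 30 counts over both conditions, on a log2 scale, against those counts on a log scale. Purple points are large subunit genes and orange points small subunit genes, bars are 95% counting intervals, the grey band is 1.5-fold either way and the dashed line is the median of all protein-coding genes. Most points lie inside the band, and Rpl17, with 3 counts in telogen, lies farthest from it in each comparison.

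The members that were lower in UVB than in telogen include binding partners of Mdm2. Rpl11 had 22.9 CPM in UVB and 40.0 CPM in telogen, a ratio of 0.572 (0.481 to 0.681). Rpl26, which in human cells binds the p53 message, had 26.6 and 41.5 CPM, a ratio of 0.641 (0.544 to 0.759). Their accessibility was as low in anagen as in UVB, at 23.1 CPM for Rpl11 and 22.7 CPM for Rpl26, so it was telogen that stood apart. The lowest ratio was that of Rpl12, a stalk protein of the large subunit, with 13.5 CPM in UVB, 24.8 CPM in anagen and 24.3 CPM in telogen. Its ratio of UVB over telogen was 0.557 (0.445 to 0.699) and of UVB over anagen 0.545 (0.453 to 0.656), so here UVB stood apart. Rps9 had 28.4 CPM in UVB and 43.8 CPM in telogen (0.647, 0.551 to 0.762). Part of some of these differences lay away from the starts. At the start feature of Rps9 UVB had 23.0 and telogen 27.6 CPM, and at another 3107 bp downstream 1.73 and 9.76 CPM. Rpl26 had 25.4 and 35.0 CPM at its start feature, and 1.17 and 5.74 CPM at another 3378 bp downstream. For Rpl11 these values were 18.3 and 27.7 CPM, and 3.03 and 9.57 CPM at 4853 bp downstream. The start feature of Rpl12 had 12.5 and 22.8 CPM. Rpl35a had 15.7, 24.0 and 23.9 CPM in UVB, anagen and telogen, the same order as Rpl12. It was just past 1.5-fold lower in UVB than in either other condition (UVB over anagen 0.653, 0.546 to 0.780).

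Anagen over telogen uses the same telogen sample as UVB over telogen. In it Rpl26 was at 0.547 (0.453 to 0.660) and Rpl11 at 0.577 (0.477 to 0.698). Rpl36a had 15.0 CPM in anagen and 26.2 CPM in telogen (0.572, 0.452 to 0.725). Rps26 had 31.9 and 53.8 CPM (0.594, 0.505 to 0.699) and Rpl24 24.2 and 38.8 CPM (0.624, 0.517 to 0.754). Here too, part of some differences lay away from the starts. The strongest feature of Rps26 had 25.0 CPM in anagen and 37.5 CPM in telogen, and another farther upstream 2.02 and 11.7 CPM. Rpl11 had 18.8 and 27.7 CPM at its start feature, and 1.25 and 9.57 CPM at 4853 bp downstream. At their start features Rpl26 had 21.8 and 35.0 CPM, Rpl36a 14.5 and 25.1 CPM and Rpl24 17.2 and 31.6 CPM. Rpl18, Rps9 and Rpl8, named after their values were seen, were also among the lower members. Rpl36a was the 1 member past 1.5-fold higher in UVB than in anagen, with 28.8 CPM in UVB and 15.0 CPM in anagen (1.92, 1.60 to 2.32). Rpl24, Rpl34 and Rps12 were also higher in UVB, with UVB over anagen between 1.43 and 1.45. Rps12, a small subunit protein, was also the highest of the well-counted members in UVB over telogen, with 89.9 CPM in UVB and 72.5 CPM in telogen (1.24, 1.11 to 1.39).

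Members past 1.5-fold higher than in telogen rested on few counts. Rpl17, a large subunit protein of chromosome 18, had 28 counts in UVB, 69 in anagen and 3 in telogen in its 1 feature by the rule, which gives 11.6-fold for anagen over telogen with an interval of 3.79 to 57.4. That feature is not where most of the gene's accessibility lies. Over the whole gene with 1 kb on either side, Rpl17 had 23.4 CPM in UVB, 24.3 CPM in anagen and 26.6 CPM in telogen, a ratio of 0.91 for anagen over telogen (0.74 to 1.13). Rps27l had 42 counts in anagen and 12 in telogen by the rule (1.76, 0.909 to 3.67), and at its starts a ratio of 0.71 (0.58 to 0.86). Rpl22 had 33 and 11 counts (1.51, 0.743 to 3.31), and at its starts a ratio of 0.80 (0.69 to 0.93). Rpl32l had 53 counts in UVB and 9 in telogen (1.90, 0.930 to 4.39). The direction of Rpl17, Rps27l and Rpl22 in anagen over telogen was therefore turned by counting the start or the whole gene.

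The 6 genes with pigment or skin phenotypes in mice were spread over the family. None was past 1.5-fold in UVB over telogen or in UVB over anagen, and 1, Rpl24, was past it in anagen over telogen. Rps19 had a ratio of 0.880 for UVB over telogen and 0.758 for anagen over telogen (0.685 to 0.840). Rps20 had 64.1 CPM in UVB, 46.9 CPM in anagen and 59.3 CPM in telogen, ratios of 1.08 and 0.791. Rps7 had 23.3, 30.8 and 26.8 CPM, the opposite order of Rps20. Rpl27a (63.6, 64.5 and 58.9 CPM) and Rpl38 (26.5, 22.2 and 27.7 CPM), the gene of the Tail-short mouse, were not past 1.5-fold in any comparison. The 6 genes that bind p53 or Mdm2 (Rpl5, Rpl11, Rpl23, Rps3, Rps7 and Rpl26) had all 6 ratios of UVB over telogen below 1, with a median log2 of -0.32. In that comparison 73.0% of 74 members and 62.3% of 14000 protein-coding genes were below 1. Rpl5 had 14.3 CPM in UVB, 19.5 CPM in anagen and 15.9 CPM in telogen. Rpl23 had 20.5, 21.8 and 25.6 CPM and Rps3 30.4, 30.8 and 37.9 CPM.

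Other gene lists of ribosome supply and protein turnover were read the same way, against the shares and medians of all genes given above. Mitochondrial ribosomal protein genes, a separate set for the organelle's own ribosome, had 1 higher and 14 lower of 76 in UVB over telogen and a median log2 of -0.21. The 14 are 18.4%, near the 16.5% of all genes. In anagen over telogen they had 3 higher and 6 lower of 76 (7.89% lower, against 16.3% of all genes) and a median of -0.20. The 10 cytosolic ribosomal proteins outside the symbol rule, such as Rplp0, Rpsa and Fau, had medians of -0.28 and -0.39, and 9 of them were below 1 in UVB over telogen, where 62.3% of all genes were. Ribosome assembly and rRNA synthesis genes had 1 lower and none higher of 25 in UVB over telogen (median -0.28) and again in anagen over telogen (median -0.20). Translation factors whose messages carry a TOP element had none past 1.5-fold of 13 in UVB over telogen (median 0.03) and 2 higher in UVB over anagen (15.4%, against 10.4% of all genes, median 0.26), among them Eif3h at 1.54 (1.36 to 1.74). Proteasome core subunits had 2 lower (16.7%) and none higher of 12 in UVB over telogen and a median of -0.37, the lowest of these lists. The 17 growth regulators had none higher and 2 lower in UVB over telogen (11.8% lower), with 11 ratios below 1 and a median of -0.10. The 2 were Rptor, a subunit of mTORC1, at 0.585 (0.452 to 0.759), and Tsc2, an inhibitor of it, at 0.610 (0.480 to 0.778). Myc, a transcription factor that drives ribosome production, had 68.7 CPM in UVB, 41.5 CPM in anagen and 46.1 CPM in telogen, ratios of 1.49 for UVB over telogen (1.30 to 1.72) and 0.90 for anagen over telogen.

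The conditions were not uniform inside. Barcode names carry a tag number that the labels do not explain. A trailing letter a or b of a tag, where present, was dropped, so such tags counted under the same number. Over tag numbers with at least 50 nuclei the family's sum ran between 2360 and 4033 CPM in UVB (median 3244, 15 tag numbers). It ran between 2517 and 3669 CPM in anagen (median 3287, 7 tag numbers) and between 3010 and 3715 CPM in telogen (median 3420, 10 tag numbers). The ranges overlapped, and the spread within a condition was wider than the difference between the conditions' sums. UVB tag number 19 alone held 2934 nuclei and 51.6% of the UVB counts. Of its nuclei 25.7% were melanocyte-like and 37.6% keratinocyte-like, against 62.4% and 9.17% in the other UVB nuclei. In telogen, tag numbers 1 and 2 held 50 and 60 nuclei with medians of 15216 and 8866 counts, against 1650 over all telogen nuclei. They held 812479 and 532914 of the 5225945 telogen counts, and 2.0% and 0.0% of their nuclei were melanocyte-like. Their sums for the family were 3440 and 3406 CPM. Without the tag number that held most counts in each condition, the sums were 3307 CPM in UVB, 2787 CPM in anagen and 3307 CPM in telogen, and UVB over telogen was 1.00-fold (0.980 to 1.02), so that difference rests on those tag numbers. Anagen over telogen was then 0.843-fold (0.824 to 0.861). The share of counts near any gene end moved with the sums, between 37.7% and 48.4% over UVB tag numbers, 35.6% and 44.4% over anagen and 38.2% and 45.2% over telogen, and its part in them was not tested.

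**Figure D4:**
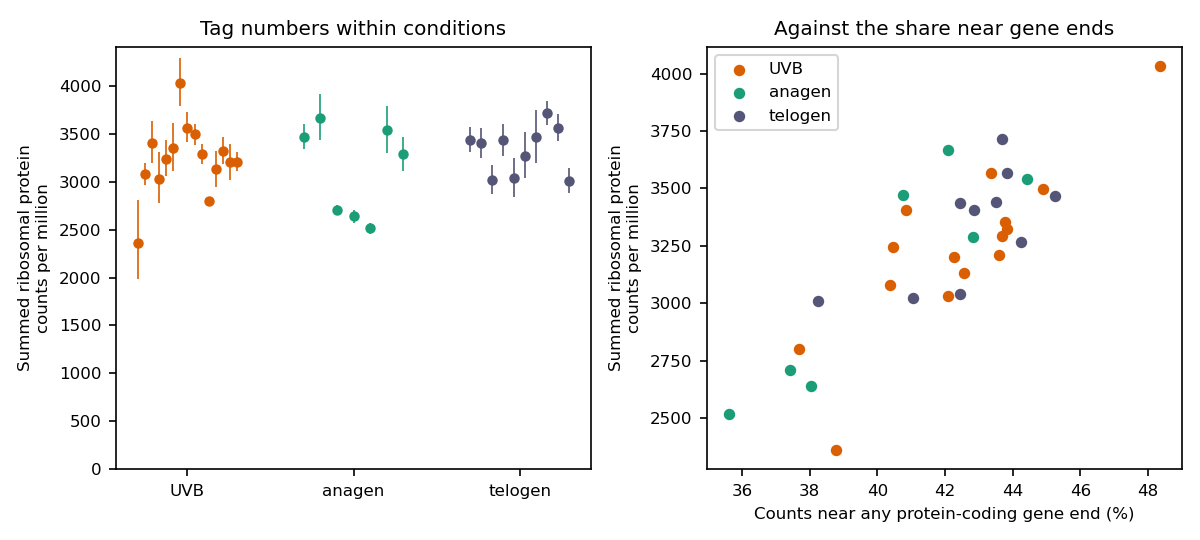
Left, summed ribosomal protein CPM in each tag number with at least 50 nuclei in UVB (orange, 15), anagen (green, 7) and telogen (grey, 10), in order of tag number, with 95% counting intervals. Right, the same sums against the share of counts near any protein-coding gene end, in percent. UVB runs between 2360 and 4033 CPM, anagen between 2517 and 3669 CPM and telogen between 3010 and 3715 CPM, and the higher sums lie at higher shares.

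Cell classes were rebuilt by clustering without the 215 ribosomal protein features and named from marker genes, and 7 had at least 50 nuclei in every condition. The family was open in all of them, between 2628 CPM (keratinocyte-like) and 3854 CPM (myeloid- and Langerhans-like) in UVB. In anagen the range was 2493 CPM (fibroblast-like) to 3332 CPM (myeloid- and Langerhans-like), and in telogen 2845 CPM (Schwann-like) to 3802 CPM (endothelial-like). The highest class stood 1.47-fold above the lowest in UVB and 1.34-fold in anagen and in telogen, and in gene-end CPM 1.20, 1.19 and 1.22-fold. In melanocyte-like nuclei, the cells the Dct label is meant to mark, the sum was 3365 CPM in UVB (3013 nuclei), 2670 CPM in anagen (1148 nuclei) and 3248 CPM in telogen (229 nuclei). UVB over telogen was 1.036-fold there (0.976 to 1.101), anagen over telogen 0.822-fold (0.774 to 0.874) and UVB over anagen 1.260-fold (1.233 to 1.288). In gene-end CPM these ratios were 1.05, 1.00 and 1.05, so the anagen difference is also that of all gene ends, whose share was 44.1% in UVB, 36.6% in anagen and 44.6% in telogen melanocyte-like nuclei.

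**Figure D5:**
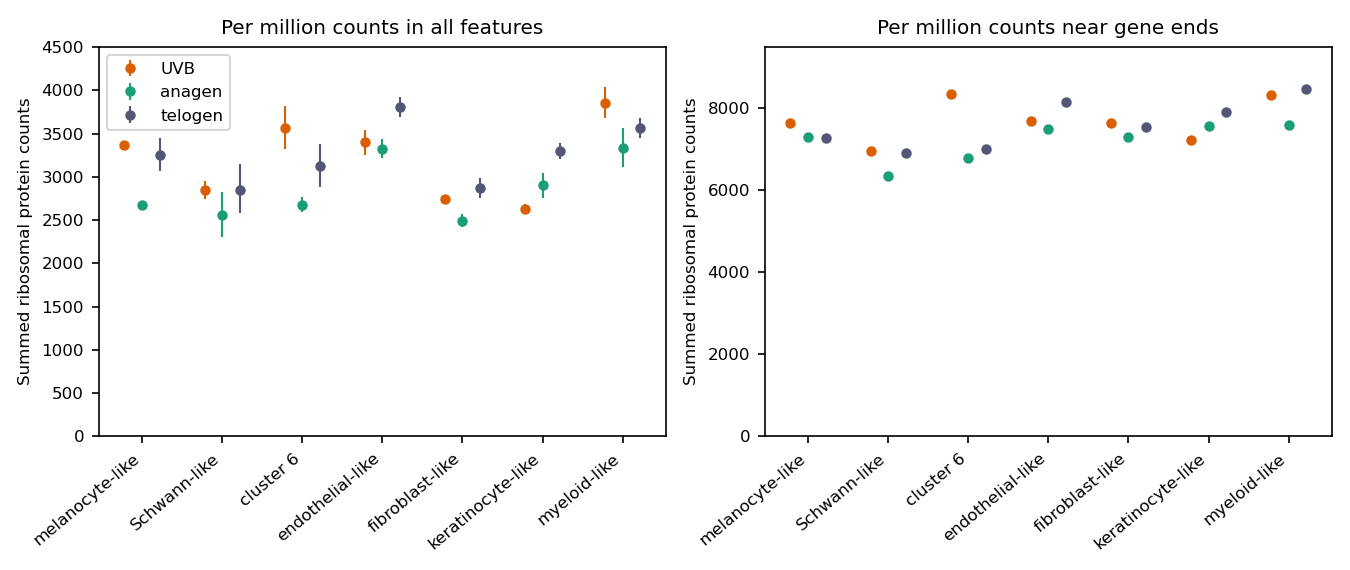
Summed ribosomal protein accessibility per cell class, left in CPM over all features with 95% counting intervals and right in gene-end CPM, in UVB (orange), anagen (green) and telogen (grey). The class labelled myeloid-like holds the myeloid- and Langerhans-like nuclei. In melanocyte-like nuclei the left values are 3365 in UVB, 2670 in anagen and 3248 in telogen, and the right values lie closer together.

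Different clusters made up the melanocyte-like nuclei. Cluster 7 held 68.8% of those in anagen, 1.23% of those in UVB and 1.31% of those in telogen, and its anagen sum was 2620 CPM. In cluster 1 the sum was 3546 CPM in UVB, 3306 CPM in anagen and 3611 CPM in telogen, and in cluster 3 it was 3032, 2569 and 2630 CPM. Within cluster 1 anagen was therefore nearer to the other conditions than over all melanocyte-like nuclei. Cluster 3 was named on weaker ground, with 6 of 13 melanocyte markers at 2-fold, against 8 in cluster 1 and 12 in cluster 7. Its median log2 for melanocyte markers was 0.80, against 0.42 for Schwann markers. It held 43.0% of the melanocyte-like nuclei in UVB, 15.9% in anagen and 43.2% in telogen. Among single members in melanocyte-like nuclei, UVB over anagen had 16 higher and 5 lower of 73, where 20.5% of 12302 genes were higher and 15.5% lower. Rpl24 had 49.9 CPM in UVB and 25.7 CPM in anagen there (1.94, 1.58 to 2.40), Rpl34 70.1 and 34.8 CPM (2.02, 1.69 to 2.42), and Rps12 112.3 and 61.5 CPM (1.83, 1.60 to 2.10). Telogen had 229 such nuclei with 349141 counts, so single members had few counts in it, 5 for Rpl11 and 2 for Rpl26. In this class Rpl11 had 21.1 CPM in UVB, 24.9 CPM in anagen and 14.3 CPM in telogen, which is not the order over all nuclei. UVB over telogen had 18 higher and 7 lower of 70, where 20.6% of genes were higher and 15.8% lower, and anagen over telogen 18 higher and 19 lower of 71, where 21.5% were higher and 25.8% lower.

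Set against the other nuclei of their own condition, melanocyte-like nuclei had a sum of 3365 CPM against 2826 CPM in UVB, a ratio of 1.191 (1.170 to 1.212). In anagen they had 2670 against 2837 CPM (0.941, 0.920 to 0.964) and in telogen 3248 against 3385 CPM (0.960, 0.903 to 1.019). In gene-end CPM the ratio was 1.020 in UVB (1.002 to 1.038), 0.998 in anagen (0.975 to 1.022) and 0.911 in telogen (0.857 to 0.968), so most of the UVB excess was that of all gene ends and the telogen ratio was lower on that scale. Members past 1.5-fold numbered 12 higher and 1 lower of 72 in UVB, where 19.8% of genes were higher and 21.0% lower, and 9 higher and 2 lower of 72 in anagen, where 19.3% were higher and 20.6% lower. In telogen they numbered 7 higher and 22 lower of 69, where 19.2% were higher and 29.2% lower. Of the 69 members with at least 30 counts in each condition, none was past 1.5-fold higher in all 3, and Rpl24, Rpl37, Rps23 and Rps27a were in 2. The share of all genes past 1.5-fold in several conditions is not given here. Rps27l was past it in UVB and anagen, and its telogen counts were too few to be read this way, with 4 in melanocyte-like and 8 in other nuclei (11.5 and 1.64 CPM, 6.98, 1.54 to 26.1). Rps27l's features near its gene ends had 4.83 CPM in melanocyte-like and 0.42 CPM in other UVB nuclei (11.5, 4.09 to 44.8), and 7.61 and 0.90 CPM in anagen (8.42, 3.30 to 27.5). All 69 anagen counts of the Rpl17 feature lay in melanocyte-like nuclei. With the other anagen nuclei set to a floor of 3 counts, the ratio was 26.2, which depends on that floor. The strongest Rps27l feature here is not at an annotated start, and the start of Rpl17 is not annotated in the tables used, so these values concern sites near the gene ends and cannot be given to the promoters. Many ribosomal protein genes have processed pseudogenes with near-identical exons, and how reads matching both were treated is not given in the sources used, so counts inside these genes are less certain than counts upstream of them.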

How the data were processed

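The labels describe GFP-positive nuclei tagged by combinatorial barcodes. The authors deposited 1 matrix per condition of counts in whole numbers, for each nucleus over 315694 features of 500 bp. Bowtie2, SAMtools, MACS2 and mm10 (GRCm38) are named in the submitters' processing notes. How counts were made, cut-site shifts and filters on nuclei: not given in the sources used here. The 2 UVB libraries lie in 1 matrix. No column of another sample was present (0).

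Each barcode was counted once per condition: of 2 entries with the same barcode the deeper was kept, which removed 62 UVB (0.937%), 1721 anagen (31.4%) and 543 telogen (21.0%) entries. No doublet caller was run. Counts were summed over features within 1 kb of either gene end and scaled to all counts in features of a condition, as counts per 1000000 (CPM). Ratios have exact conditional binomial intervals, shares and CPM Wilson intervals, at 95%. A gene at 0 was set to a floor of 3 counts. Promoters and positions came from RefSeq GRCm38.p6. The intervals were tested only on simulated independent counts, which lack the pairing of counts seen here. That test therefore does not show how much too narrow they are on these data.

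Clustering used TF-IDF, 30 components and the Leiden method at resolution 0.6 (seed 1), with leidenalg 0.10.2, igraph 0.11.9 and scikit-learn 1.9.0, in Python 3.11.15 with scipy 1.17.1, pandas 2.3.3, numpy 2.4.6 and matplotlib 3.10.9. Lists of marker genes gave the cluster names, and the rule that left cluster 6 unnamed was set after seeing the data. Named members were the 5 highest and 5 lowest by mean CPM, the 5 highest and 5 lowest ratios of each comparison with at least 30 counts, members with no feature, and those of the paralogue, pigment and p53 lists. Some members that the rule selects are counted in the sums but not reported singly here. Members and lists were chosen with earlier results of these data known.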

Additional observations from a re-analysis of the deposited data

Results flagged for a closer look

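In 2 comparisons the family's summed CPM had a ratio whose interval lay above 1 in some cell classes and below 1 in others. Each condition is 1 sample, so the differences between classes were not tested. In UVB over telogen the ratio was 1.141 in cluster 6 (a cluster left unnamed because pericyte and fibroblast markers were both high) and 1.082 in myeloid- and Langerhans-like nuclei, but 0.894 in endothelial-like and 0.797 in keratinocyte-like nuclei. In UVB over anagen it was 1.330 in cluster 6, 1.260 in melanocyte-like, 1.157 in myeloid- and Langerhans-like and 1.099 in fibroblast-like nuclei, but 0.906 in keratinocyte-like nuclei. In gene-end CPM, UVB over telogen was 1.192 in cluster 6 (1.072 to 1.326), 0.982 in myeloid- and Langerhans-like (0.928 to 1.039), 0.943 in endothelial-like (0.894 to 0.994) and 0.915 in keratinocyte-like nuclei (0.884 to 0.947), so on that scale cluster 6 alone of these classes stood above 1. UVB over anagen was 1.231 in cluster 6, 1.046 in melanocyte-like, 1.096 in myeloid- and Langerhans-like, 1.049 in fibroblast-like and 0.957 in keratinocyte-like nuclei. The keratinocyte interval there was 0.907 to 1.011, so the opposite directions in UVB over anagen did not hold on that scale. Cluster 6 held 127 nuclei in UVB, 682 in anagen and 106 in telogen.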

How the results depend on the processing

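No paired analysis was possible because each condition was 1 sample and the 2 UVB libraries lie in 1 matrix. Log2 ratios of the family's sum were -0.15 (UVB over telogen), -0.29 (anagen over telogen) and 0.14 (UVB over anagen), with 8, 14 and 6 members past 1.5-fold. In melanocyte-like nuclei UVB over telogen was 0.051, of the other sign, but the interval of that ratio held 1 (1.036, 0.976 to 1.101). UVB over anagen was 0.33 in these nuclei. There 25 of 70, 37 of 71 and 21 of 73 members were past 1.5-fold at their lower counts, against 36.4%, 47.3% and 36.0% of all genes. Without the tag number with most counts the ratios were -7.8e-05, -0.25 and 0.25, with 2 members for UVB over telogen and 11 for UVB over anagen. In gene-end CPM they were -0.071, -0.12 and 0.048, with 5 members in UVB over telogen and 7 in anagen over telogen. Without nuclei above 3 times the median count, UVB over telogen was -0.094 and anagen over telogen -0.23 with 7 members. Counting within 0.5 kb gave 0.17 for UVB over anagen and 9 members in anagen over telogen, and leaving out shared features gave 0.17 for UVB over anagen. The gene body gave -0.17 for UVB over telogen and 3 members in UVB over anagen, and start windows alone 5 members in UVB over telogen and 5 in anagen over telogen. At 2-fold 1 member remained in each comparison. The shares of all genes under the settings other than melanocyte-like nuclei are not given here, so those member counts cannot be read against them. In keratinocyte-like nuclei without the deepest nuclei, anagen over telogen was -0.28 and UVB over anagen -0.040, and in myeloid- and Langerhans-like nuclei UVB over telogen was 0.21.

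Single members reversed in melanocyte-like nuclei on the log2 scale: for UVB over telogen Rpl11 0.56, Rpl26 2.11, Rpl6 1.59, Rps26 0.58 and Rps9 0.61, and for anagen over telogen Rpl11 0.80, Rpl26 1.93, Rps26 0.15 and Rps9 0.92. They rested on 5 (Rpl11), 2 (Rpl26), 1 (Rpl6), 10 (Rps26) and 6 (Rps9) telogen counts. Except for Rpl26, the interval of each of these ratios held 1. The Rpl26 intervals were 1.18 to 35.9 and 1.03 to 31.8, but they rest on 2 telogen counts and are too narrow. None of these directions is therefore settled. Rpl5 in UVB over anagen was 0.062 without the largest tag numbers. The cause was not tested. For single members, leaving out a tag number and counting at starts or over the gene body were chosen after seeing the data. Telogen melanocyte-like counts (1134 over the family) limit those values.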
